A study of Mus musculus with 6 samples.

Results

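Lysosomes are acidic organelles in which proteases, glycosidases, lipases and sulfatases break down material delivered by endocytosis and autophagy, and the proton pump V-ATPase keeps them acidic. Their genes are controlled in part by the MiT/TFE transcription factors TFEB, TFE3 and MITF, which bind a palindromic element near many lysosomal start sites. The kinase complex mTORC1 holds these factors in the cytosol when nutrients are plentiful, and this step depends on the Rag GTPases and on folliculin at the lysosomal surface. The genes described here are 36 named genes in 5 roles: 3 MiT/TFE factors, 9 cathepsins, 12 hydrolases or hydrolase cofactors, 4 membrane proteins and 8 proton pump genes. They were chosen by name from the table of 55291 gene symbols. All 36 were found, and all 36 averaged at least 10 across the 6 libraries, the level from which a gene was tested.

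The itaconate group was 3 RNA-seq libraries of CD4+ T cells given 5 mM itaconate, a dicarboxylate made by activated macrophages. The NaCl group was 3 libraries given 5 mM NaCl as the control. In both groups the cells came from the spleens of naive wild-type C57BL/6 mice, were labelled with the division dye CFSE and were stimulated for 48 h with antibodies to CD3 and CD28 in 200 U of IL-2. The control columns are headed NAC. No source used here explains that code, which could also abbreviate N-acetylcysteine, and taking it as NaCl rests on the labels listing just these treatments. The labels tie no library to a mouse or culture of its own, so p-values describe a spread among samples that may be technical.

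Estimated reads per library ranged from 20074299 to 22755248 with itaconate and from 21015690 to 24144999 with NaCl. Values are normalized estimated counts, and fold changes are log2 differences of value + 1 between itaconate and NaCl. In bulk RNA, fewer cells of a type and less RNA per cell cannot be told apart. The 8 T cell markers, Cd3e and Cd4 among them, summed to 70734 to 72292 with itaconate and to 58755 to 64362 with NaCl; 5 rose, 1 fell and 2 did not pass the test used for all genes (limma, Benjamini-Hochberg adjustment). Of 12 macrophage and monocyte markers, 2 reached a mean of 10. Both rose with itaconate: Cd68, itself a lysosomal membrane protein gene (log2 fold change 0.92, adjusted p = 0.0318), and Itgam (2.10, adjusted p = 0.00521). The other 10, including the defining genes Csf1r, Lyz2 and C1qa, did not exceed 9.67 in any library and were at 0 in 36 of 60 values. The 12 markers together summed to 168 to 201 with itaconate and to 65.3 to 97.8 with NaCl. Dendritic cell markers summed to 139 to 184 with itaconate and to 98.9 to 131 with NaCl, with Clec9a, Clec10a and Cd209a at 0 throughout. Of the 3 dendritic cell markers tested, Zbtb46 carried most of that sum and rose (log2 fold change 0.77, adjusted p = 0.0323), while Itgax (−0.13, adjusted p = 0.915) and Flt3 (−0.25, adjusted p = 0.719) did not pass. The macrophage and dendritic cell sums were thus higher beside the rises described below, and their part in them was not tested. The markers were tested without the alternatives. B cell markers summed to 202 to 323 with itaconate and to 238 to 319 with NaCl. The CD8 T cell markers Cd8a and Cd8b1 summed to 308 to 365 with itaconate and to 363 to 408 with NaCl, and neither passed. NK cell markers summed to 0 to 2.05 with itaconate and to 0 to 4.54 with NaCl.

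The 36 genes did not move as a block with itaconate. Their directions differed: 10 rose, among them Tfeb, Tfe3, the cathepsin genes Ctsd, Ctss, Ctsb and Ctsl, and the hydrolase genes Lipa and Neu1, while 6 fell, 4 of them genes of the proton pump. The remaining 20 did not pass, a gene passing when its adjusted p from limma was below 0.05. No member reached a 2-fold difference, and 6 reached 1.5-fold. Ctsd, Lipa, Neu1 and Hexa among these passed. Ctsf (log2 fold change −0.97, adjusted p = 0.102) and Sgsh (−0.65, adjusted p = 0.0736) did not. Among all 13170 tested genes 3798 reached 1.5-fold and 1748 reached 2-fold. Of all 13170 tested genes 36% passed, 18.2% higher and 17.8% lower with itaconate, against 16 of the 36 members (44.4%), so the number that passed was near the background. The groups did not overlap for 20 of the 36 members, 12 with itaconate above and 8 below, and for 48.4% of all tested genes. The median log2 fold change was −0.04 over the members and −9.54e-04 over all tested genes. Without itaconate replicate 2 or NaCl replicate 2 the number of members that rose was 5 or 6. The number that fell was 3 without itaconate replicate 2, without NaCl replicate 3 or without the intensity trend of the variance.

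**Figure D1:**
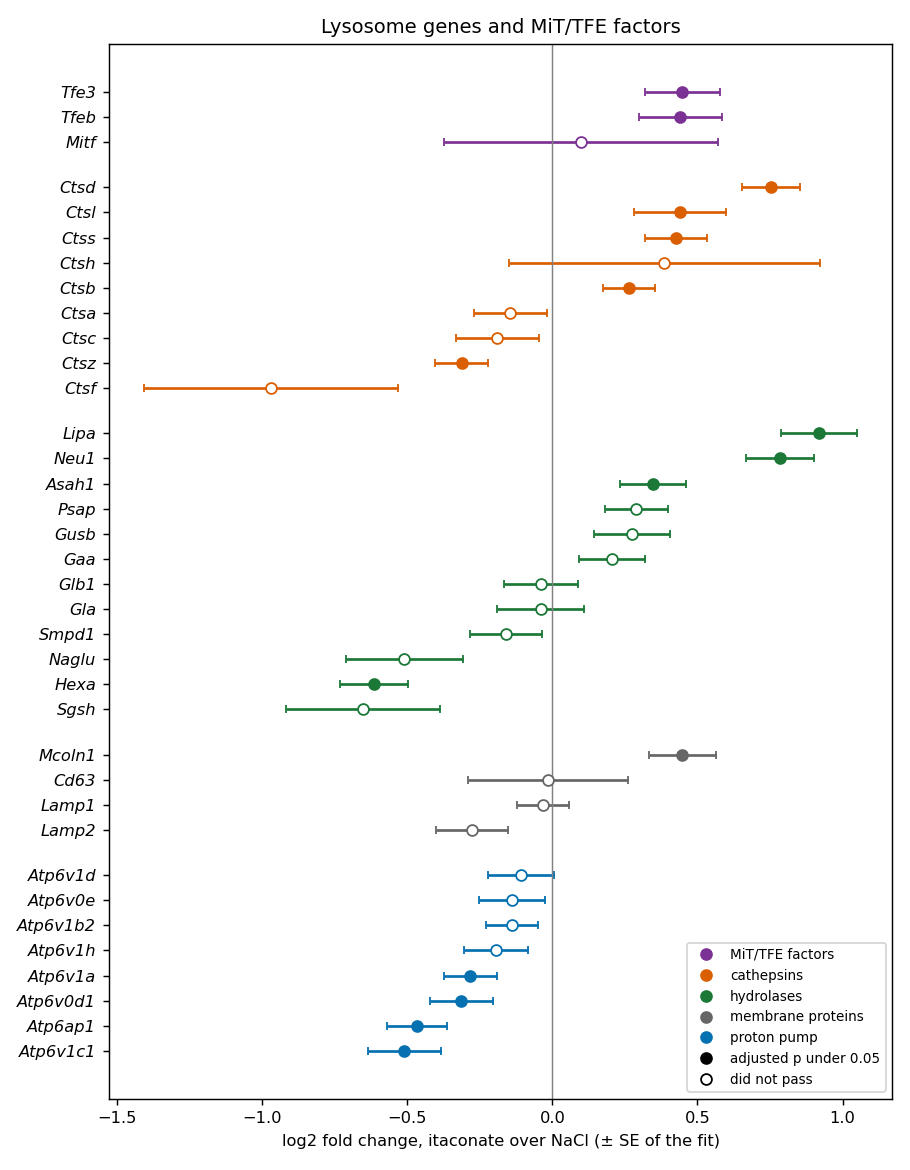
Log2 fold change of each of the 36 genes, itaconate over NaCl (x axis, ± SE of the limma fit, 3 libraries per group), grouped by role, with filled points for adjusted p under 0.05. All 8 proton pump genes lie below 0, and Lipa (0.92), Neu1 (0.78) and Ctsd (0.75) lie farthest above it.

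Among the transcription factors, Tfeb and Tfe3 rose by similar amounts and Mitf was low and did not pass. On GRCm38, Tfeb lies at chr17:47737030-47792419 and Tfe3 at chrX:7762560-7775202. Tfeb had 503, 544 and 516 normalized estimated counts in itaconate libraries 1, 2 and 3, against 361, 339 and 461 in NaCl libraries 1, 2 and 3. The groups did not overlap, and NaCl replicate 3 was the control nearest to the itaconate libraries. The log2 fold change of Tfeb was 0.44 ± 0.14 (SE, adjusted p = 0.0295). Tfe3, which encodes the partner factor that shares TFEB's target element, had 1132, 1008 and 882 with itaconate, against 817, 642 and 754 with NaCl. Here itaconate replicate 3 was the lowest of its group and still above every control (log2 fold change 0.45 ± 0.13 SE, adjusted p = 0.0161). Mitf, the melanocyte and osteoclast factor of the family, had 50.5, 32.2 and 15.4 with itaconate, against 33.7, 29.1 and 20.9 with NaCl, and the groups overlapped (adjusted p = 0.892). Tfec, the remaining gene of the family, was listed at 0 in all 6 libraries. Per kilobase of exon, Tfe3 and Tfeb stood at 109 ± 13.5 and 91.9 ± 3.63 with itaconate, against 79.7 ± 9.57 and 68.2 ± 11.5 with NaCl, whereas Mitf stood at 5.28 ± 2.83 with itaconate and 4.50 ± 1.05 with NaCl (SD, n = 3).

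The calls of both factors ended under several alternatives. Without a library, the log2 fold changes where the call ended were 0.35 to 0.41 for Tfeb and 0.35 to 0.44 for Tfe3, near those with all 6 libraries. For Tfeb the adjusted p was 0.10 without itaconate replicate 2, 0.0858 without NaCl replicate 1, 0.117 without NaCl replicate 2 and 0.0627 with no intensity trend. Across the alternatives it ran from 0.0127 to 0.186, the upper end being the value after trends with GC content and exon length were removed, where the log2 fold change was 0.22. For Tfe3 it was 0.0638 and 0.0554 without itaconate replicate 1 or 2, 0.0771 without NaCl replicate 2 and 0.0651 with no intensity trend, in a range of 0.00504 to 0.0771. Both factor genes had log2 fold changes above 0 in every alternative run.

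Genes of the machinery that controls these factors were examined as well. Of 24 tested genes on that list, 3 rose, 3 fell and 18 did not pass, so that 25% passed, against 36% of all tested genes. Flcn, the folliculin gene, had 1408, 1582 and 1362 with itaconate, against 1049, 1098 and 1070.2 with NaCl, without overlap (log2 fold change 0.43 ± 0.098 SE, adjusted p = 0.0044). Rragd, a Rag GTPase gene, rose to 522 ± 75.6 with itaconate, against 341 ± 71.0 with NaCl (SD, n = 3), a log2 fold change of 0.63 ± 0.17 SE (adjusted p = 0.0129). Its adjusted p was 0.0524 without NaCl replicate 1 and 0.06 without the intensity trend, in a range of 0.00484 to 0.06. Rraga, which encodes the partner GTPase RagA, went the other way: it had 530.3, 450.1 and 565 with itaconate, against 1175, 1089 and 1221 with NaCl. Every itaconate library lay far below every control (log2 fold change −1.18 ± 0.12 SE, adjusted p = 1.63e-05). The remaining Rag genes, named after their values were seen, did not pass. Rragc lay below every control in each itaconate library (1151 ± 16.9 against 1361 ± 14.5, SD, log2 fold change −0.24, adjusted p = 0.0550). Rragb was low and overlapped between groups (adjusted p = 0.732). Ppp3ca, a catalytic subunit of calcineurin, the phosphatase that acts on TFEB, rose (log2 fold change 0.95 ± 0.20 SE, adjusted p = 0.00261), and Gsk3b, a kinase of TFEB, fell (−0.43 ± 0.089, adjusted p = 0.00251). Calcineurin genes did not move together, the others being named after their values were seen. Ppp3cb, also for a catalytic subunit, did not pass (log2 fold change 0.03, adjusted p = 0.826). Its mean was 2875 with itaconate and 2818 with NaCl. Ppp3r1, for a regulatory subunit, fell (−0.26, adjusted p = 0.0413). The folliculin partner genes Fnip1 (log2 fold change 0.02, adjusted p = 0.875) and Fnip2 (−0.01, adjusted p = 0.984) did not pass.

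The element bound by these factors is common near the members' start sites, and the promoters below show it in genes that rose, genes that fell and a gene that did not pass. RefSeq promoters on GRCm38.p6, from 250 bases before to 50 after a start site, were found for 30 of the 36 members. Each was searched on both strands for the E-box CACGTG, for TCACGTG and for the 8-letter palindrome TCACGTGA, each of which contains the shorter ones. CACGTG was in a promoter of 14 of the 30 members (46.7%), against 11.8% of 9758 tested genes with a promoter and 8.09% of all 27025 genes in the table. The 8-letter motif was in 7 members (23.3%), against 2.26% of those tested genes and 1.12% of all genes. The members were picked by name as lysosomal genes, near many of which this element is already known. These shares are therefore a description and no independent result. Of 8 matched members that rose, 3 held CACGTG and 2 the 8-letter motif. Of 5 matched members that fell the numbers were 2 and 2, and of 17 that did not pass 9 and 3. The 5 promoters shown are those with the 8-letter motif and the smallest p, from 250 bases before to 30 after the start, 5′ to 3′ on the gene's strand, with matches to any of the 3 motifs in capitals. Ctsd and Mcoln1 rose, Atp6v1a and Atp6v0d1 fell, and Atp6v0e did not pass.
Ctsd, chr7:142387798-142388077, minus strand: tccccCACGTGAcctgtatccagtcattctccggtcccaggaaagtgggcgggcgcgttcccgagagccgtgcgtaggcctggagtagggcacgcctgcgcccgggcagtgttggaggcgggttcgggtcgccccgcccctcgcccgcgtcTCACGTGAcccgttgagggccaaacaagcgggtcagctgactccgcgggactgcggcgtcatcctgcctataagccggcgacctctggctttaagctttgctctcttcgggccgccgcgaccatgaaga
Mcoln1, chr8:3500269-3500548, plus strand: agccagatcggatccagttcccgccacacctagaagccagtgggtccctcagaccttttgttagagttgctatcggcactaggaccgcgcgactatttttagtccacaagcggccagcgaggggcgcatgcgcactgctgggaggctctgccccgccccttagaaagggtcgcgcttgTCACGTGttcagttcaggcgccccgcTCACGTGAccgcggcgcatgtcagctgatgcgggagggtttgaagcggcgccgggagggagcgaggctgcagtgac
Atp6v1a, chr16:44139230-44139509, minus strand: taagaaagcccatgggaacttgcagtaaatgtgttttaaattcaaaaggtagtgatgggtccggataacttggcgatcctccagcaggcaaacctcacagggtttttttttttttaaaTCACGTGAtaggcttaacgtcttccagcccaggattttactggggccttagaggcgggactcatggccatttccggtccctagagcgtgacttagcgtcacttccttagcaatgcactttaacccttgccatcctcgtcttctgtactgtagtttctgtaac
Atp6v0d1, chr8:105566035-105566314, minus strand: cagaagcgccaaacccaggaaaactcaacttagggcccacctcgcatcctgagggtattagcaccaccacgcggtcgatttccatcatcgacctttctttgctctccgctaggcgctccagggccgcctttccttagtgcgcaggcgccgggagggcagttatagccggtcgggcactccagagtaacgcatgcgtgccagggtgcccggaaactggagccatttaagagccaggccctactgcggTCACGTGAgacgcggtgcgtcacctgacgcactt
Atp6v0e, chr17:26676146-26676425, plus strand: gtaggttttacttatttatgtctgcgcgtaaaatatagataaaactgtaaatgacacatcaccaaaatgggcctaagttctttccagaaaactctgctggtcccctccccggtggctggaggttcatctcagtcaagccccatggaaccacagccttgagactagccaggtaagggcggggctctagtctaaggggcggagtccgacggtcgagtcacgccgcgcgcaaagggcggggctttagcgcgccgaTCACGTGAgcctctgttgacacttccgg
Counted from the start site, the 8-letter motif began at base −99 in Ctsd, −46 in Mcoln1, −132 in Atp6v1a, −4 in Atp6v0d1 and 3 in Atp6v0e. Ctsd and Mcoln1 each held another match farther upstream, of the 7-letter motif TCACGTG, which in Ctsd lies on the opposite strand. Lipa, Neu1, Ctss, Hexa, Atp6ap1, Ctsz, Tfeb and Tfe3, which also passed the test, held none of the 3 motifs in this window.

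Cathepsins, the lysosomal proteases, went in both directions: 4 of the 9 rose, 1 fell and 4 did not pass. Among these 9 genes 55.6% passed, against 36% of all tested genes, of which 18.2% rose and 17.8% fell. Ctsd, an aspartic protease gene at chr7:142375911-142388038 and the strongest riser of the class, had 4923, 5477 and 5194 with itaconate, against 2708, 3082 and 3503 with NaCl. All 3 itaconate libraries were far above the highest control. The log2 fold change was 0.75 ± 0.10 SE (1.69-fold, adjusted p = 1.26e-04), and Ctsd passed in all 17 alternatives, with adjusted p of at most 0.0109. Of its exon bases 34.4% are shared with the predicted gene Gm49369 on the same strand, whose mean was 0.315. Glb1 shares 165 exon bases with Tmppe on the same strand, and the division of reads between such genes is uncertain. Ctss, a cysteine protease gene that also serves antigen presentation, had 1163, 1093 and 974 with itaconate, against 786, 797 and 814 with NaCl. The controls were tightly grouped and the itaconate libraries spread more widely above them (log2 fold change 0.43 ± 0.11 SE, adjusted p = 0.00745). Ctss also passed in all 17 alternatives.

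The rises of Ctsb and Ctsl, both cysteine protease genes, were smaller or less certain. Ctsb had 4603, 4668 and 5393 with itaconate, against 3840.3, 4029 and 4329.7 with NaCl, with itaconate replicate 3 the highest (log2 fold change 0.26 ± 0.091 SE, adjusted p = 0.0384). Of its exon bases 774 (12.8%) overlap Fdft1 on the opposite strand, a sterol synthesis gene that itself rose (1782 ± 244 with itaconate and 1221 ± 85.4 with NaCl, SD, n = 3; adjusted p = 0.00291). The strand setting of the counts is not given in the sources used here, so reads from the shared bases cannot be told apart. The Ctsb call ended without itaconate replicate 2 (0.0677) or 3 (0.124), without NaCl replicate 1 (0.117) or 2 (0.0990), with no filter (0.0617) and with no intensity trend (0.115), in a range of 0.00768 to 0.124. Ctsl had 321, 315 and 303 with itaconate, against 256, 242 and 197 with NaCl, without overlap (log2 fold change 0.44 ± 0.16 SE, adjusted p = 0.0451). Its call ended without itaconate replicate 1 (0.103), 2 (0.111) or 3 (0.0558), without NaCl replicate 2 (0.0762) or 3 (0.166) and with no filter (0.0684), in a range of 0.0266 to 0.166.

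Ctsz, the gene of the carboxypeptidase cathepsin Z, was the 1 of these 9 cathepsin genes that fell. It had 2063, 2086 and 2260.1 with itaconate against 2647, 2448 and 2877 with NaCl (log2 fold change −0.31 ± 0.092 SE, adjusted p = 0.0186). The groups did not overlap, but its adjusted p was 0.0546 and 0.0721 without itaconate replicate 1 or 2, 0.0813 without NaCl replicate 3 and 0.0666 with no intensity trend, in a range of 0.00494 to 0.0813. Because Ctsd rose and Ctsz fell, the order of these cathepsin transcripts, the most abundant per kilobase of exon, differed between the groups on that scale. In normalized estimated counts, not divided by length, Ctsd was above Ctsz in every library of both groups. Per kilobase of exon, Ctsd was at 1.46, 1.61 and 1.41 times the level of Ctsz in itaconate libraries 1, 2 and 3, and at 0.627, 0.772 and 0.746 times in NaCl libraries 1, 2 and 3. This ratio does not depend on how libraries were scaled, though it does depend on the exon lengths used. Ctsa, the protective protein gene for Neu1's product, and Ctsc, which encodes the activator of granule serine proteases, did not pass and overlapped between groups (adjusted p = 0.398 and 0.325). Ctsf and Ctsh were low, at 17.8 to 39.0 and 13.3 to 27.9 with itaconate, against 30.6 to 65.3 and 10.05 to 15.3 with NaCl. Ctsf passed without itaconate replicate 3 (adjusted p = 0.0315, range over alternatives 0.0315 to 0.304). The 9 cathepsin genes together summed to 16138 ± 440 with itaconate and 13694 ± 901 with NaCl (SD, n = 3).

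**Figure D2:**
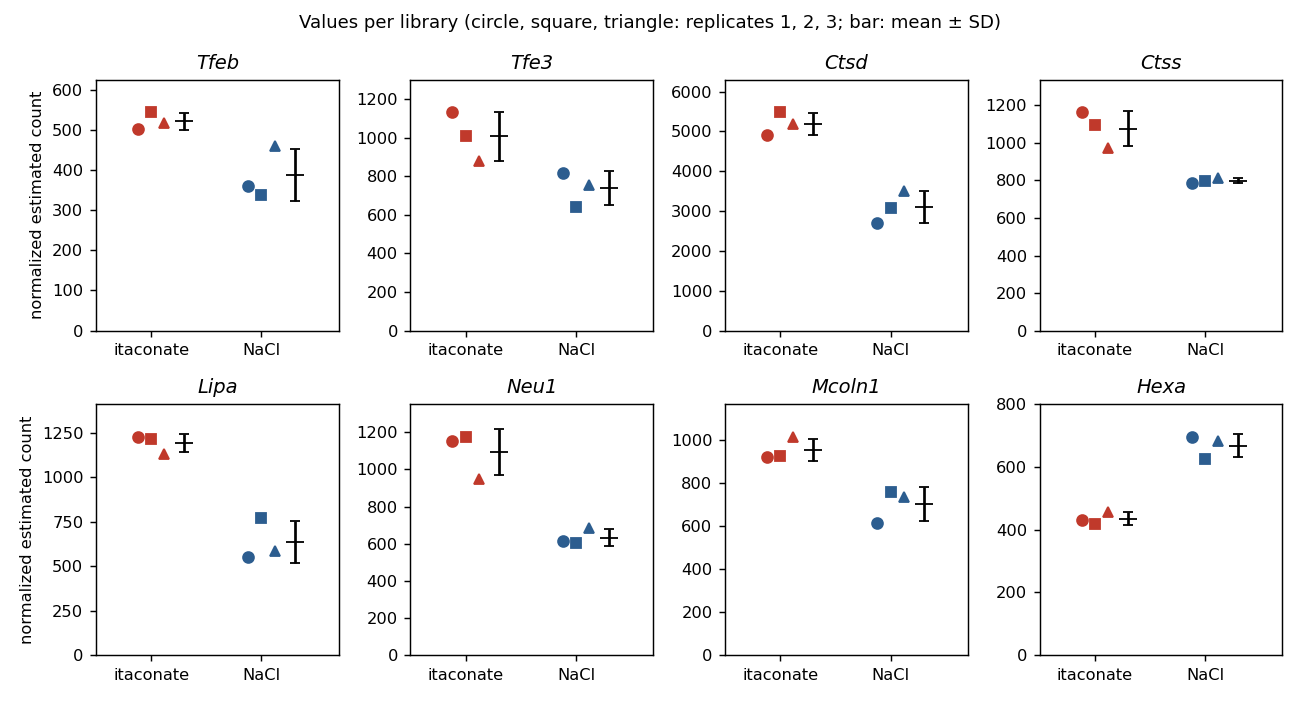
Normalized estimated counts (y axis, from 0) of 8 genes in the 3 itaconate and 3 NaCl libraries, with replicate 1 as a circle, 2 as a square and 3 as a triangle, and mean ± SD beside them. The groups do not overlap in any panel, Hexa is the gene lower with itaconate, and the gap is narrowest for Tfeb and Tfe3.

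**Figure D3:**
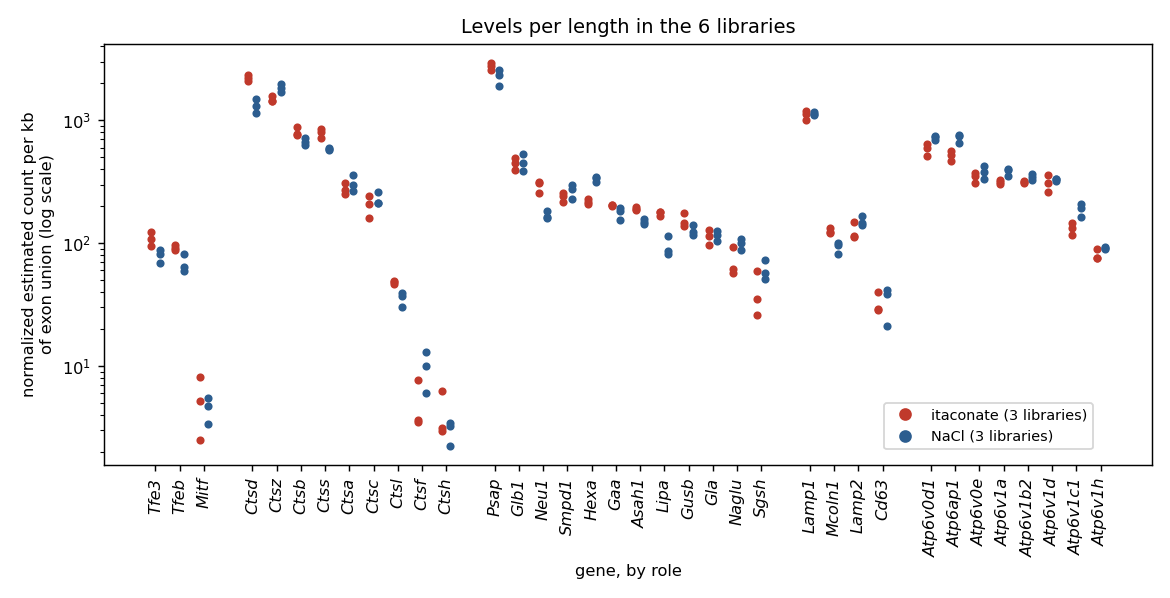
Normalized estimated counts per kilobase of exon union (y axis, log scale) of the 36 genes in the itaconate and NaCl libraries, ordered by level within each role. Psap and Ctsd are the highest with itaconate (2765 and 2211), and Mitf, Ctsf and Ctsh the lowest.

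Hydrolases of lipids and glycans included the largest rises of all members, and also a clear fall. Of 12 genes 3 rose, 1 fell and 8 did not pass, so that 33.3% passed, near the 36% of all tested genes. Lipa, the lysosomal acid lipase gene that releases cholesterol and fatty acids from esters taken up with lipoproteins, had 1228, 1214 and 1133 with itaconate, against 554, 770.5 and 585 with NaCl. Lipa lies at chr19:34492318-34527474 on GRCm38. NaCl replicate 2 was the highest control and stayed well below the itaconate libraries. The log2 fold change was 0.92 ± 0.13 SE (1.89-fold, adjusted p = 1.91e-04). Neu1, the lysosomal sialidase gene at chr17:34931253-34935953, had 1154, 1176 and 950.4 with itaconate, against 612, 602 and 684 with NaCl. Itaconate replicate 3 was lowest in its group, and the groups were far apart (log2 fold change 0.78 ± 0.12 SE, adjusted p = 3.03e-04). Asah1, the acid ceramidase gene, rose less, with 672, 632 and 641 with itaconate against 506, 535 and 489 with NaCl (log2 fold change 0.35 ± 0.11 SE, adjusted p = 0.0309). Its adjusted p was 0.0880 and 0.0698 without itaconate replicate 1 or 2 and 0.0707 and 0.0934 without NaCl replicate 1 or 3, in a range of 0.00878 to 0.0934.

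Hexa, at chr9:59539540-59565109, encodes the alpha subunit of the hexosaminidase that degrades GM2 ganglioside. It had 431, 419 and 457 with itaconate, against 697, 626 and 683 with NaCl. Both groups were tight and far apart (log2 fold change −0.62 ± 0.12 SE, adjusted p = 0.00153), and Hexa, like Lipa and Neu1, passed in all 17 alternatives. Naglu and Sgsh, genes for enzymes of heparan sulfate breakdown, did not pass, and itaconate replicate 3 stood nearer to the controls than to the rest of its group. Naglu had 152, 164 and 246 with itaconate, against 236, 267 and 285 with NaCl. Sgsh had 156, 114 and 264 with itaconate, against 226, 251 and 324 with NaCl. Without itaconate replicate 3 Naglu passed at −0.72 on the log2 scale (adjusted p = 0.00747, the lowest of a range up to 0.197), and Sgsh at −0.98 (adjusted p = 0.00329, the lowest of a range up to 0.296).

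Psap, the precursor of the saposins that help lipid hydrolases and the most abundant member per length, had 7069.9, 7658 and 8033 with itaconate, against 5242, 6437 and 7056 with NaCl. The groups did not overlap by a narrow margin, and the test was just missed (log2 fold change 0.29 ± 0.11 SE, adjusted p = 0.0515). Psap passed without itaconate replicate 1 (0.0447) or NaCl replicate 3 (0.0223) and in 6 further alternatives, in a range of 0.00632 to 0.204. Gaa, the acid alpha-glucosidase gene of glycogen breakdown, likewise had all itaconate libraries (959 to 976) above all controls (732 to 919.9) without passing (adjusted p = 0.175). Gusb, the beta-glucuronidase gene, had a log2 fold change of 0.27 (adjusted p = 0.123). Gla, Glb1 and Smpd1, genes of alpha-galactosidase, beta-galactosidase and acid sphingomyelinase, had values of −0.04, −0.04 and −0.16 and overlapped between groups.

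On a wider list of 31 other tested hydrolase and activator genes 7 rose, 6 fell and 18 did not pass. The share of this list that passed was 41.9%, against 36% of all tested genes. Arsb, the arylsulfatase B gene, had 334, 366 and 470.1 with itaconate, against 160.1, 139.6 and 155 with NaCl, with every itaconate library far above the controls (log2 fold change 1.34 ± 0.17 SE, adjusted p = 9.88e-05). Ctsw, a cathepsin gene typical of cytotoxic lymphocytes, rose to 803 ± 22.3, against 388 ± 87.5 with NaCl (SD, n = 3; adjusted p = 2.77e-04). Acp5, the tartrate-resistant acid phosphatase gene, fell to 873 ± 135, against 1891 ± 295 with NaCl (log2 fold change −1.11 ± 0.14 SE, adjusted p = 8.46e-05). Galc, the galactosylceramidase gene, fell as well (−0.77 ± 0.13, adjusted p = 6.60e-04). So did Ctso, another cathepsin gene of this list, named after its values were seen (−0.52 ± 0.18, adjusted p = 0.0383).

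Of the 4 membrane protein genes 1 rose and 3 did not pass, so that 25% passed, against 36% of all tested genes. Mcoln1, at chr8:3500457-3515232, encodes the lysosomal calcium channel TRPML1. It had 921, 924 and 1013 with itaconate, against 612, 755 and 734 with NaCl. The groups did not overlap, and NaCl replicate 1 was the lowest library (log2 fold change 0.45 ± 0.12 SE, adjusted p = 0.00952, passing in all 17 alternatives). Lamp1, a major coat protein gene of the lysosomal membrane, had 2696, 3011 and 3179 with itaconate, against 3031, 2933 and 3105 with NaCl, and a log2 fold change of −0.03 ± 0.089. Lamp2, its close relative that also serves autophagy, had 1095, 1072 and 1429.7 with itaconate, against 1355, 1588 and 1391 with NaCl. Here too itaconate replicate 3 was the library that overlapped the controls. Lamp2 did not pass (adjusted p = 0.0975) but did without itaconate replicate 3 (−0.41 on the log2 scale, adjusted p = 0.0107, the lowest of a range up to 0.313). Cd63, a tetraspanin gene of late endosomes, was low and scattered, at 105 to 149 with itaconate and 78.5 to 153 with NaCl.

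**Figure D4:**
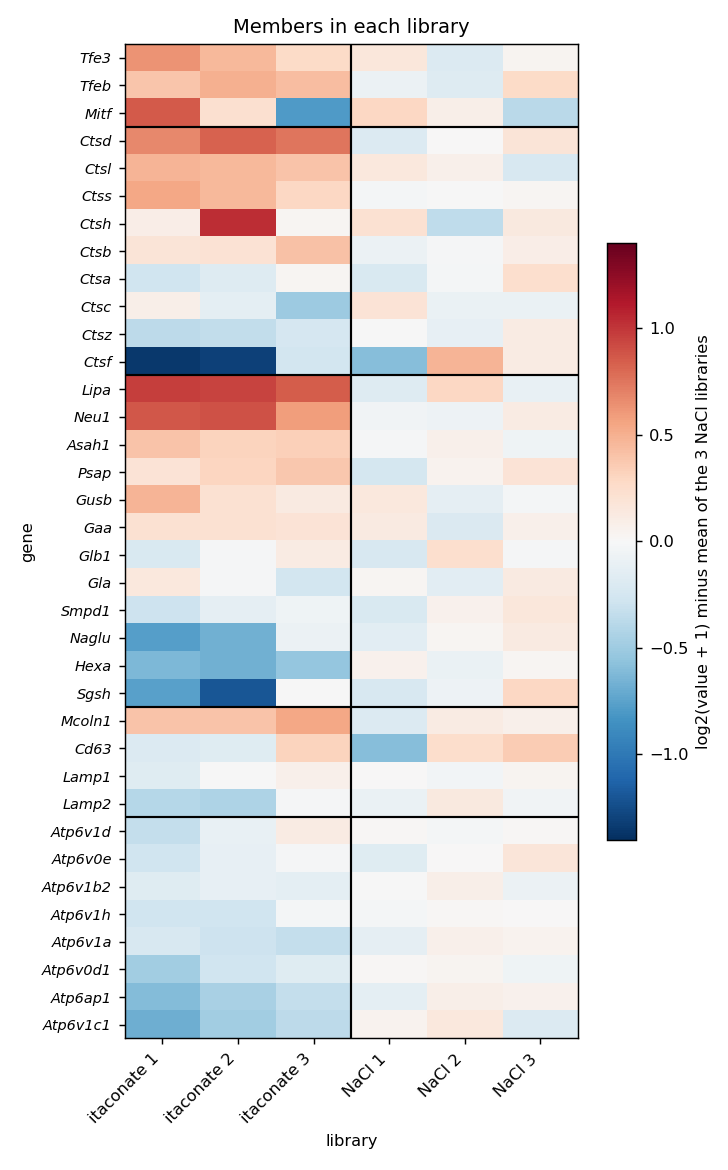
Log2(value + 1) of each of the 36 genes (rows, by role) in each library (columns) minus the mean of the 3 NaCl libraries. Ctsd, Lipa, Neu1 and Mcoln1 are above 0 in all 3 itaconate libraries and the pump genes mostly below, while Naglu, Sgsh and Lamp2 are lowest in itaconate replicates 1 and 2.

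Among other lysosomal membrane genes, 7 of 25 tested rose, 3 fell and 15 did not pass. The share that passed was 40%, against 36% of all tested genes. Scarb2, the gene of LIMP-2, which carries glucocerebrosidase to the lysosome, rose to 2615 ± 186 with itaconate, against 1660.4 ± 114 with NaCl (SD, n = 3), or by 0.65 ± 0.094 SE on the log2 scale (adjusted p = 2.12e-04). Tpcn1, a two-pore cation channel gene, rose by a similar amount (log2 fold change 0.78 ± 0.11 SE, adjusted p = 2.18e-04). Mcoln2, a relative of Mcoln1, was low, at 53.3, 36.5 and 29.8 with itaconate, against 16.3, 7.03 and 5.45 with NaCl (adjusted p = 0.00928). Its adjusted p without itaconate replicate 1 was 0.0501, the upper end of a range that began at 0.00518. Slc15a3, a peptide and histidine transporter gene, fell (log2 fold change −1.36 ± 0.27 SE, adjusted p = 0.00202). Receptors that deliver hydrolases from the Golgi also diverged. Igf2r, the large mannose 6-phosphate receptor gene, had 4994, 4949 and 4455 with itaconate, against 2744, 3137 and 2635 with NaCl (log2 fold change 0.76 ± 0.093 SE, adjusted p = 6.86e-05). M6pr, the small receptor gene, had 3399.8, 3116 and 3179.7 with itaconate, against 4209.8, 3967 and 4036 with NaCl (−0.33 ± 0.081, adjusted p = 0.00669). Sort1, the sortilin gene, rose to 142 ± 54.1, against 51.5 ± 7.34 with NaCl (adjusted p = 0.00354), and Gga2, an adaptor gene for these receptors, rose by 1.16 ± 0.19 on the log2 scale (adjusted p = 6.20e-04). On that list of 10 genes 4 rose, 2 fell and 4 did not pass, so that 60% passed, against 36% of all tested genes.

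The proton pump was the role that leaned most to lower values. V-ATPase has a cytosolic V1 part that hydrolyses ATP and a membrane V0 part that carries protons. All 8 member genes had log2 fold changes below 0, from −0.51 to −0.11, with 4 that fell and 4 that did not pass, and the itaconate libraries lay wholly below the controls for 6. Over all tested genes 17.8% fell, and itaconate lay wholly below NaCl for 24.2%. The median log2 fold change was −0.24, against −9.54e-04 for all tested genes. Relative to the NaCl mean, the median of the 8 genes was −0.31, −0.28 and −0.15 in itaconate libraries 1, 2 and 3, and −0.01, 0.06 and 0.01 in NaCl libraries 1, 2 and 3. Their values summed to 10422 ± 693 with itaconate and 12512 ± 495 with NaCl (SD, n = 3).

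Atp6v1c1, the C subunit gene of V1 at chr15:38661933-38692446, had 656, 751 and 819 with itaconate, against 1088, 1166 and 919 with NaCl. The groups came nearest in replicate 3, the highest itaconate library and the lowest control. The log2 fold change was −0.51 ± 0.13 SE (adjusted p = 0.00694). Atp6ap1, which encodes an accessory subunit of V0, had 1418, 1575 and 1718 with itaconate, against 1971, 2281 and 2249 with NaCl. The groups were clearly separated (log2 fold change −0.47 ± 0.10 SE, adjusted p = 0.00364), and both genes passed in all 17 alternatives. Atp6v1a, the catalytic A subunit gene, had 1985, 1890.5 and 1842 with itaconate, against 2123, 2437 and 2406 with NaCl (log2 fold change −0.28 ± 0.091 SE, adjusted p = 0.0287). Its adjusted p was 0.0881 and 0.0622 without itaconate replicate 2 or 3, 0.102 and 0.0926 without NaCl replicate 2 or 3 and 0.0775 with no intensity trend, in a range of 0.0127 to 0.102. Atp6v0d1, the d subunit gene that joins V0 to the stalk, had 925, 1069.8 and 1153 with itaconate, against 1311, 1336 and 1249.9 with NaCl (−0.31 ± 0.11, adjusted p = 0.0366). Its call ended without itaconate replicate 1 (0.141) or 2 (0.0798), without NaCl replicate 1 (0.0843), 2 (0.106) or 3 (0.0621), without the intensity trend (0.0862) and after removal of GC and length trends (0.105), in a range of 0.0161 to 0.141. Atp6v1b2 and Atp6v1h, the B2 and H subunit genes, did not overlap between groups either but did not pass (adjusted p = 0.248 and 0.193). For Atp6v1h the margin was narrow, with 878.6 in itaconate replicate 3 and 881.1 in NaCl replicate 1. Atp6v0e and Atp6v1d overlapped between groups (adjusted p = 0.367 and 0.496).

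**Figure D5:**
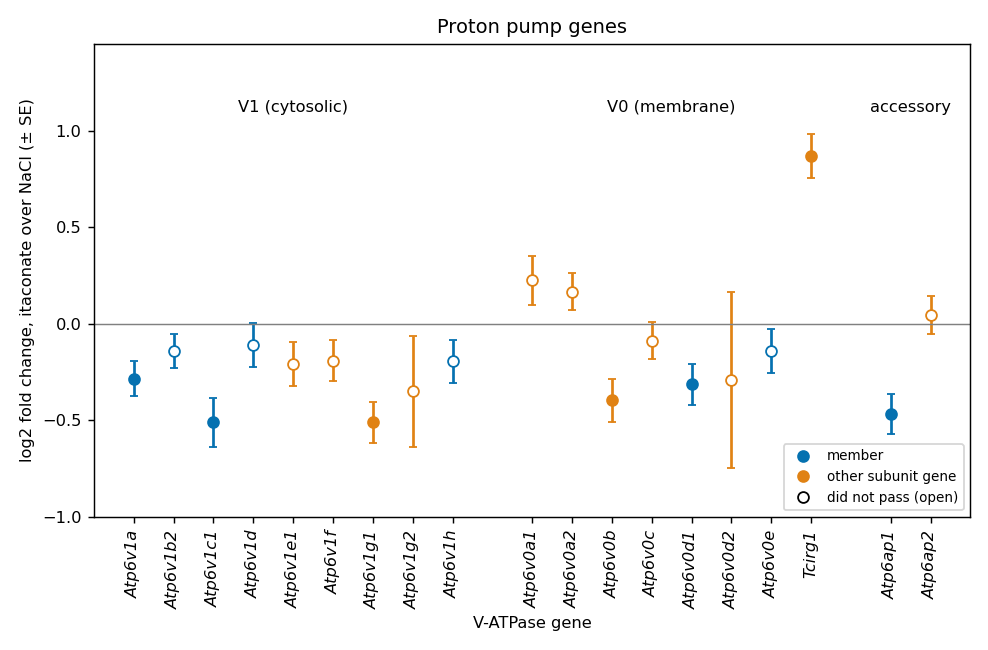
Log2 fold change, itaconate over NaCl (y axis, ± SE), of the 8 member genes and 11 other tested V-ATPase genes, arranged as V1, V0 and accessory subunits, with filled points for adjusted p under 0.05. Of the 19 genes 15 lie below 0, and Tcirg1 at 0.87 is the gene that rose.

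The wider pump list held an exception. Of 11 other tested V-ATPase genes 1 rose, 2 fell and 8 did not pass, so that 27.3% passed, against 36% of all tested genes. Tcirg1, which encodes the a3 isoform of the proton-carrying a subunit, had 2322, 2258 and 1979 with itaconate, against 1139, 1065 and 1399 with NaCl. Every itaconate library was far above every control (log2 fold change 0.87 ± 0.12 SE, adjusted p = 1.23e-04). The other a subunit genes, named after their values were seen, did not pass, with log2 fold changes of 0.17 for Atp6v0a2 (adjusted p = 0.187) and 0.23 for Atp6v0a1 (adjusted p = 0.190). Per kilobase of exon, Tcirg1 was at 475 ± 39.7 and Atp6v0a2 at 313 ± 28.4 with itaconate, against 261 ± 38.1 and 278 ± 6.20 with NaCl (SD, n = 3). This comparison depends on the exon lengths used. Not divided by length, Tcirg1 was at 2186 ± 183 and Atp6v0a2 at 2104 ± 191 with itaconate, against 1201 ± 175 and 1868 ± 41.7 with NaCl. The genes that fell were Atp6v1g1, of the stalk (−0.51 ± 0.11, adjusted p = 0.00275), and Atp6v0b, of the rotor ring (−0.40 ± 0.11, adjusted p = 0.0152). The adjusted p of Atp6v0b was 0.0586 and 0.0545 without itaconate replicate 1 or 2, 0.0605 without NaCl replicate 1 and 0.0636 with no intensity trend, in a range of 0.00473 to 0.0636.

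Of 37 tested autophagy genes, which deliver cargo to the lysosome and include targets of TFEB, 4 rose, 6 fell and 27 did not pass, so that 27.0% passed, against 36% of all tested genes. Sqstm1, the gene of the cargo receptor p62, had 3192, 3846 and 3980.5 with itaconate, against 9607, 8059 and 8601 with NaCl. Each itaconate library was far below the lowest control (log2 fold change −1.26 ± 0.10 SE, adjusted p = 3.80e-06). Ulk1, a kinase gene that starts autophagy, rose to 2414 ± 221, against 1587 ± 188 with NaCl (SD, n = 3), or by 0.61 ± 0.11 SE on the log2 scale (adjusted p = 0.00103). Its relative Ulk2, named after its values were seen, fell (−0.40 ± 0.14, adjusted p = 0.0386). Vps11, a tethering factor gene for fusion with the lysosome, rose (0.41 ± 0.11, adjusted p = 0.0093). The other Vps genes of this list were named after their values were seen. Vps18 fell (−0.42 ± 0.15, adjusted p = 0.0375), and Vps16, Vps33a, Vps39 and Vps41 did not pass. Atg3, the conjugating enzyme gene for LC3, fell (−0.46 ± 0.12, adjusted p = 0.0111), with an adjusted p of 0.0541 without NaCl replicate 1, the upper end of a range from 0.00587. Over all 144 tested genes of the 7 wider lists 26 rose and 22 fell (33.3%), near the 36% of all tested genes. The number that fell was 12 without itaconate replicate 2 or the intensity trend, 13 without NaCl replicate 2 and 14 without NaCl replicate 3.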

How the data were processed

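RNA of 6 libraries, 3 per treatment, was measured by RNA-seq. The authors deposited 1 table, with normalized estimated counts for each gene symbol in each library, treated here as a signal of expression. The genome build mm10 and the tools STAR 2.7.0f and RSEM 1.3.0 come from the submitters' processing notes. The annotation, the strandedness, the normalization tool and the filters were not given in the sources used here. Every value was a multiple of a library-specific step, from which the estimated reads were obtained. Of the entries above 0 in each library, 79.9% to 82.2% had an estimated read number that was whole within 0.02, so count models were not used. Scaling makes values relative to other genes, and a shift common to most genes would be hidden.

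For symbols on several entries (107, no member) the entry with the highest mean was kept. Genes averaging at least 10 were fitted as log2(value + 1) in limma 3.58.1 (R 4.3.3), allowing the variance to follow the mean (the intensity trend), two-sided, with Benjamini-Hochberg adjustment over 13170 genes at 0.05. Fold changes understate those of low genes. Within groups, libraries differed beyond sampling noise (chi-square per degree of freedom 12.9 to 25.8). Their log2 values correlated at 0.973 to 0.979 (Pearson, over genes, which are no independent replicates). Positions, overlaps and lengths (the union of annotated exons) came from GENCODE M21 on GRCm38, which matched 98.4% of tested genes.

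The members and lists were chosen with earlier results of these data known. From each wider list the text names up to 4 genes that passed, by smallest p, and Tfec, Flcn, Fnip1, Fnip2 and Rragd, and says where a gene was chosen otherwise. The 17 alternatives were pseudocounts of 0.1 and 10, no filter, a mean of at least 100, median-ratio or TMM rescaling, quantile normalization, a block for the replicate number, no intensity trend, robust variances, each library left out and, chosen after seeing the data, removal of trends with GC content and length.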

Additional observations from a re-analysis of the deposited data

How the results depend on the processing

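Of 609 values of the 36 genes under the 17 alternatives, 536 kept both direction and side of the threshold. Ctsd, Ctss, Mcoln1, Hexa, Lipa, Neu1, Atp6v1c1 and Atp6ap1 passed in all 17, and the other 8 of the 16 members that passed lost the call in 4 to 7 of them. With each library left out in turn, 5 to 9 members rose and 3 to 9 fell, 20 to 25 genes of the wider lists rose and 12 to 27 fell, and 3478 to 5000 genes passed in all. Without the intensity trend 3 members and 12 genes of the wider lists fell. Signs of genes that had not passed turned as follows, and the cause was not tested. With a library left out, log2 fold changes ran from −0.28 to 0.54 for Mitf, −0.085 to 0.034 for Lamp1, −0.32 to 0.16 for Cd63, −0.14 to 0.069 for Gla, −0.15 to 0.080 for Glb1, −0.22 to 0.0052 for Atp6v1d, −0.055 to 0.080 for Fnip1 and −0.077 to 0.10 for Fnip2. After quantile normalization they were 0.076 for Cd63, −0.029 for Fnip1 and 0.10 for Fnip2. With GC content and length trends removed they were 0.042 for Lamp1, 0.016 for Gla, 0.035 for Glb1 and −0.028 for Fnip1. Replicate numbers were not taken to pair the libraries: the labels tie them to no mouse or day, and the deviations of same-numbered libraries from their group means correlated at 0.15, 0.04 and 0.13 across genes, not all above 0.1. Differently numbered pairs had −0.14 to 0.02, so each library correlated best with its own number, a hint from the data and not from the design. With the replicate number as a block 11 members rose and 8 fell, 27 and 29 genes of the wider lists rose and fell, and 5634 genes passed. Psap (adjusted p = 0.00632), Naglu (0.0291) and Sgsh (0.0162) passed with the block. Values below about 50, as for Mitf, Ctsf and Ctsh, limit what could be detected: the SE of their log2 fold changes was 0.44 to 0.54.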

Other observations

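Genes of cysteine cathepsin inhibitors (cystatins, stefins and the Ctla2 genes) were listed alongside the proteases. Of 6 tested, 0 passed in limma, the tool used, against 36% of all tested genes, and 1 had an unadjusted p under 0.05. The log2 fold changes ran from −0.29 to 0.34, and the smallest adjusted p was 0.0876. The 36 lysosome and MiT/TFE genes together held 0.220%, 0.227% and 0.241% of all values in itaconate libraries 1, 2 and 3, and 0.202%, 0.213% and 0.220% in NaCl libraries 1, 2 and 3.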
